A study of Mus musculus with 24 samples.

Results

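Intermediate filaments are the cell type-specific part of the cytoskeleton. Keratins form filaments only as pairs, in which a type I protein joins a type II protein, and Krt8 with Krt18 is the pair that marks simple and luminal mammary epithelium. Vimentin (Vim) builds the filaments of mesenchymal cells, nestin (Nes) joins vimentin filaments in progenitor cells, and the lamins (Lmna, Lmnb1, Lmnb2) line the inside of the nuclear envelope. This report describes 9 such genes, Krt7, Krt8, Krt18, Krt80, Vim, Nes, Lmna, Lmnb1 and Lmnb2, in EO771 cells. They were chosen by gene family and symbol, with the levels of Krt8 and Krt18 in these libraries already known, so the contrast between those levels is given as a description and without a test. All 9 had a row in the batch 1 table of 55471 genes. In the batch 2 table of 13915 genes 8 had a row, and Krt18 was therefore read from batch 1 alone. Each gene of the batch 2 table reached at least 10 counts in some library, and Krt18 had at most 9 counts in a library of batch 1.

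EO771, written E0771 in the labels, is a mammary carcinoma line from a spontaneous tumour of a C57BL/6 mouse. All cells carried a retroviral pLNCX2 vector with the tdTomato reporter: X2 is the vector control, CCR7 and CCR7-PDPN overexpressed mouse Ccr7, and X2-PDPN and CCR7-PDPN were sorted for high surface podoplanin (PDPN), which had come up spontaneously. The CCR7 libraries are from the cells of the CCR7 line sorted as PDPN-negative, as their columns are named and the study's text states, so CCR7-PDPN against CCR7 compares a positive with a negative sort. Batch 1 held X2, CCR7 and CCR7-PDPN, batch 2 held X2, X2-PDPN and CCR7-PDPN, and each of these 6 groups had 4 libraries, 24 in all. Each derivative is 1 sorted, non-clonal population and its 4 libraries are technical replicates, so the p-values measure the spread between libraries of that population and not between independent transductions or sorts.

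The libraries held 22275468 to 33395418 counts in batch 1 and 22788542 to 35721027 in batch 2. Ccr7 had 2714 to 3424 CPM (counts scaled by library size) in the groups that carry its cDNA and at most 0.954 CPM in the others. Pdpn had 23.6 to 26.9 CPM in the 3 groups sorted for high PDPN and at most 0.619 CPM elsewhere, so both labels matched the counts. As a check of the cell type, 3 of 10 epithelial markers reached 1 TPM (counts scaled by gene length and library size) in a group: the members Krt8 and Krt7, and Elf3. The defining ones were near 0: Epcam had at most 2 counts in a batch 1 library, Cdh1 at most 7, and Cldn7 none. Of 8 mesenchymal markers 6 reached 1 TPM, but Cdh2 and Fn1 had at most 1 and 3 counts in a library. Beside the member Vim these were Twist1 (119 to 145 TPM as group means), Snai1 (48.7 to 71.7), Zeb1 (37.4 to 48.3), Zeb2 (17.9 to 23.0) and Snai2 (0.260 to 1.10). The summed levels of both lists are mostly Vim and Krt8, and are therefore no check. Of 6 leukocyte markers 1 reached 1 TPM, Lyz2, with summed levels of 1.11 to 23.1 TPM and Cd3e without a read in batch 1, and of 6 endothelial markers 0 did, with sums of 0.675 to 1.40 TPM. Of 6 fibroblast markers 3 reached 1 TPM: Pdgfra (55.1 to 67.4 TPM as group means), Pdgfrb (37.9 to 55.7) and Col1a1 (0.807 to 3.07). The summed levels were 94.6 to 124 TPM. Dcn and Col1a2 had at most 3 and 2 counts in a batch 1 library, and Lum had no read there. Of 7 basal or myoepithelial markers 2 reached 1 TPM, Acta2 and Mylk, with summed levels of 38.3 to 109 TPM. Krt5, Krt14, Krt17 and Trp63 had at most 3 counts in a library. The RNA came from the sorted derivatives of the cell line and not from tumours, and the part of other cells was not tested.

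The genes share the coding stretch that ends the central rod, the segment through which all intermediate filament proteins pair. It is shown to let the reader see how close the members are in sequence and where Krt18 stands apart. In GENCODE M21 transcripts (mouse GRCm38), 30 bases from the longest open reading frame were read for 8 members; capitals mark a base that is the same as in Krt8.
Krt8: ACCTACCGCAAGCTGCTGGAGGGGGAGGAG
Krt7: ACCTACCGCAAGCTGCTGGAGGGcGAGGAG
Krt80: ACCTACCaCAAGCTGaTGGAaGGaGAaGAa
Krt18: ACCTACCGCcgctTGCTGGAGGatGgaGAa
Vim: ACCTACaGgAAGCTGCTGGAaGGcGAGGAG
Nes: ACaTACaGgActCTGCTGGAGGctGAGaAc
Lmna: gCCTAtCGaAAGCTGCTGGAGGGcGAGGAG
Lmnb2: gCCTACCGCAAGCTGCTGGAGGGcGAGGAG
Krt7 matched Krt8 at 29 of 30 bases, Lmnb2 at 28, Vim and Lmna at 26 and Krt80 at 24. Krt18, of the other keratin type, matched at 21, as did Nes.

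The stretch upstream of Krt8 and of Krt18 is shown because both genes lie beside each other, with starts 23.7 kb apart, yet differ in level by about 3 orders of magnitude. RefSeq promoter windows (250 bases before each start, GRCm38.p6) were read for 7 of the 9 members, and the bases that lie in an annotated exon were left out here. Lmnb1 was not looked up. Capitals mark CACCTG, the E-box form bound by Snail and Zeb factors.
Krt8, chr15:102004483-102004592, minus strand: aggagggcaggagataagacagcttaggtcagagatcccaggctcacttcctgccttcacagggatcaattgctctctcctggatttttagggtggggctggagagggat
Krt18, chr15:102027966-102028179, plus strand: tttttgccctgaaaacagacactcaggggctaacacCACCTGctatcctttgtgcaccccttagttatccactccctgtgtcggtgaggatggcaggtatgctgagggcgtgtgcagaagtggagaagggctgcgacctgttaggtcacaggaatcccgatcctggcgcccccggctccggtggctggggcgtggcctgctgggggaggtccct
On both strands and over the whole 250 bases, CACCTG occurred once in each of the windows of Krt7, Krt8 and Krt18, at 44, 111 and 214 bases before the start, in 1 of 2 windows of Lmnb2, and in 17.2% of all 32851 windows. TATAAA (12.4% of windows) and CCAAT (33.8%) were in the Vim window and in none of these keratin windows. GGGCGG, in 32.7% of windows, occurred 4 times before Krt7 and not before Krt8 or Krt18, and TGANTCA (6.75%) was in no window read for a member. The match before Krt8 lies in the exonic bases that are not shown. These matches are letters in a window, not binding sites, and they overlapped no other motif searched.

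Krt8 (ENSMUSG00000049382, GRCm38 chromosome 15, 101996698 to 102004482) was among the most abundant transcripts of these cells, while its filament partner was close to absent. In batch 1 the Krt8 level was 440 ± 5.7 TPM in X2, 469 ± 35.2 TPM in CCR7 and 559 ± 16.2 TPM in CCR7-PDPN (SD, n = 4), which ranked it 223rd to 313th of all genes with a count. Krt18 (ENSMUSG00000023043, chromosome 15, 102028180 to 102032027) had 7, 6, 2 and 4 counts in the X2 libraries, 4, 4, 4 and 1 in CCR7 and 9, 4, 5 and 8 in CCR7-PDPN. The X2 counts overlapped with those of both other groups, CCR7 and CCR7-PDPN met at 4 counts, and the values ran from 1 to 9 counts. Pooled over the 4 libraries, Krt18 stood at 0.169 CPM in X2 (exact 95% Poisson interval 0.102 to 0.264), 0.111 CPM in CCR7 (0.0593 to 0.190) and 0.213 CPM in CCR7-PDPN (0.139 to 0.312), and these intervals cover counting error only.

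Per length, the pooled Krt8 to Krt18 level ratio was 1015 in X2 (exact 95% binomial interval 650 to 1685), 1626 in CCR7 (951 to 3054) and 1016 in CCR7-PDPN (693 to 1555). Library by library the ratio averaged 1327 ± 953 in X2, 2019 ± 1147 in CCR7 and 1131 ± 449 in CCR7-PDPN (SD, n = 4), and the groups overlapped. Without X2 replicate 3 the X2 mean was 867. With raw counts and no correction for length the means were 1808, 2751 and 1541. Some reads of Krt8 cannot be placed on it alone: of its 1884 different windows of 75 bases, 442 (23.5%) also occur in another transcript, 414 of them in the pseudogene Krt8-ps. Krt8-ps had 3 to 27 counts in a batch 1 library. Krt8 also overlaps Gm36026 on the other strand, which had at most 25 counts in a batch 1 library. Krt18 shared no window with another transcript, and neither did Vim, Nes or the lamins. How the authors' counting treated reads that match several places is not given in the sources used here.

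**Figure D1:**
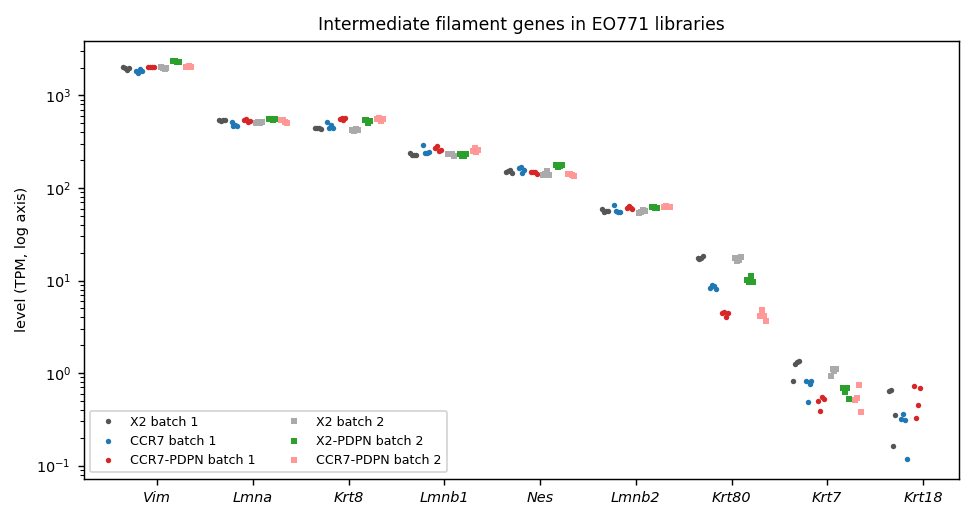
Level of each of the 9 genes in every library (TPM, log axis), genes ordered by level, circles for batch 1 and squares for batch 2, 1 point per library. Vim lies between 1760 and 2379 TPM, Krt8 between 414 and 574 TPM and Krt18 between 0.118 and 0.731 TPM.

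The type I keratins as a whole were near the detection limit. Of 53 protein-coding keratin genes, 28 were classed by locus as type I (chromosome 11, and Krt18) and 25 as type II (chromosome 15). In X2 of batch 1 the type I genes together had 1.77 TPM and the type II genes 460 TPM, of which 19.0 TPM were not Krt8. In CCR7-PDPN the sums were 1.26 TPM and 565 TPM, with 5.36 TPM beside Krt8. Krt16, a type I keratin of stressed epidermis, was the highest type I gene, with 4 to 17 counts in a batch 1 library. The luminal partner Krt19 and the basal keratins Krt5, Krt14 and Krt17 had at most 3 counts in any batch 1 library. Krt8 thus made up 95.5% of the summed keratin TPM in X2 of batch 1, 97.7% in CCR7 and 98.8% in CCR7-PDPN, and in batch 2 95.6% for X2, 97.5% for X2-PDPN and 99.0% for CCR7-PDPN.

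**Figure D2:**
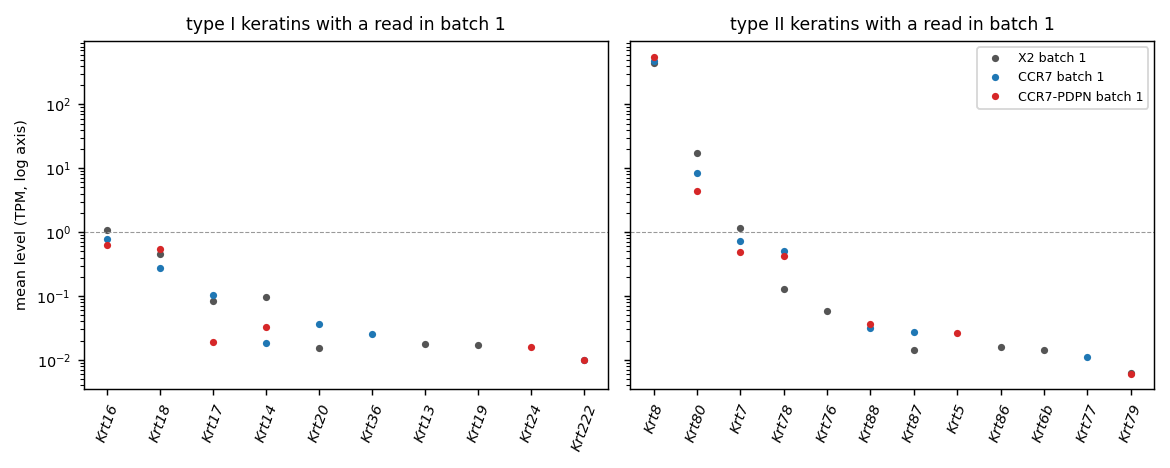
Mean level (TPM, log axis, n = 4 libraries) in the 3 batch 1 groups of every keratin gene with a read in batch 1, type I on the left and type II on the right; a mean of 0 is not drawn and the dashed line marks 1 TPM. Krt16 is the single type I gene that reaches 1 TPM, while Krt8 stands at 440 to 559 TPM.

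Across the groups the order of levels was Vim, then Lmna and Krt8, then Lmnb1, Nes, Lmnb2, Krt80 and Krt7, with Krt18 last or next to last. Lmna stood above Krt8 without overlap between libraries in X2 of both batches and in X2-PDPN. In CCR7 the libraries of both genes overlapped, and in CCR7-PDPN of both batches Krt8 had the higher mean, again with overlapping libraries. Krt7 and Krt18 overlapped in CCR7-PDPN of batch 1. All other neighbours in the order were apart in each group. Vim, the most abundant member, ranked 27th to 45th among the genes with a count. TPM divide by the length of all annotated exons of a gene, 7049 bases for Krt7 and 1437 for Krt18. The order between genes, and the ratios between genes below, depend on these lengths. In raw counts Krt7 had 23 to 30 and Krt18 4 to 9 per CCR7-PDPN library of batch 1.

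Krt8 was higher in the groups sorted for high PDPN. In batch 1 the X2 libraries had 443, 441, 446 and 432 TPM, the CCR7 libraries 516, 444, 477 and 440 TPM, and the CCR7-PDPN libraries 558, 574, 537 and 568 TPM. The CCR7-PDPN libraries lay above all others, and X2 and CCR7 overlapped. In batch 2 X2 had 426, 414, 438 and 421 TPM, X2-PDPN 540, 540, 506 and 533 TPM and CCR7-PDPN 558, 568, 532 and 560 TPM. X2-PDPN and CCR7-PDPN stood above X2 without overlap, and they overlapped with each other. Krt8 rose by 0.28 on the log2 scale between CCR7 and CCR7-PDPN (SE 0.04, adjusted p = 3.58e-05; quasi-likelihood test of edgeR, p-values adjusted over all genes by Benjamini-Hochberg) and by 0.31 between X2 and X2-PDPN (SE 0.03, adjusted p = 1.56e-12). The difference between CCR7 and X2 was 0.09 (SE 0.04, adjusted p = 0.0908), and it turned on single CCR7 libraries: 0.04 without replicate 1 (adjusted p = 0.308), and past the threshold without replicate 2 (0.12, adjusted p = 0.0357) or replicate 4 (0.12, adjusted p = 0.0240). Between CCR7-PDPN and X2-PDPN Krt8 differed by 0.09 (SE 0.03, adjusted p = 0.00569), a call lost without X2-PDPN replicate 3 (0.06, adjusted p = 0.0610).

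Krt80, a type II keratin of the differentiating epidermis and of several carcinomas, showed the largest differences of the 9 genes, in the direction opposite to Krt8. Krt80 (ENSMUSG00000037185, chromosome 15, 101347444 to 101370162) had 17.4, 16.9, 17.7 and 18.3 TPM in X2 of batch 1, 8.28, 8.93, 8.74 and 8.17 TPM in CCR7 and 4.49, 4.55, 4.05 and 4.43 TPM in CCR7-PDPN. In batch 2 X2 had 17.4, 16.3, 16.7 and 18.2 TPM, X2-PDPN 10.2, 9.58, 11.3 and 9.61 TPM and CCR7-PDPN 4.16, 4.77, 4.15 and 3.68 TPM. The groups of a batch did not overlap: X2 was highest and CCR7-PDPN lowest in both. Krt80 fell by 1.04 on the log2 scale in CCR7 against X2 (SE 0.05, adjusted p = 3.64e-13, edgeR) and by 0.94 in CCR7-PDPN against CCR7 (SE 0.06, adjusted p = 1.51e-10). It fell by 0.76 in X2-PDPN against X2 (SE 0.06, adjusted p = 8.85e-16). In CCR7-PDPN against X2 it fell by 1.98 in batch 1 (SE 0.06) and fell by 2.01 in batch 2 (SE 0.07), to 0.253 and 0.249 of the X2 level. Against X2-PDPN it fell by 1.24 in CCR7-PDPN (SE 0.07). These values rest on 164 to 956 counts per library. The gene overlaps the lncRNA Gm35853 on the other strand, which had at most 8 counts in a batch 1 library, and Mir1941.

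Krt7, a type II keratin of ducts and glands, went the same way as Krt80 at a far lower level. Krt7 (ENSMUSG00000023039, chromosome 15, 101411043 to 101430313) had 44, 57, 79 and 74 counts in X2 of batch 1, 50, 26, 48 and 34 in CCR7 and 30, 23, 30 and 30 in CCR7-PDPN. Per length these were 1.18 ± 0.250, 0.721 ± 0.162 and 0.490 ± 0.0731 TPM (SD, n = 4). X2 of batch 2 had a mean of 1.05 ± 0.0782 TPM, X2-PDPN of 0.631 ± 0.0736 TPM and CCR7-PDPN of 0.544 ± 0.153 TPM. X2 lay above each of the other groups without overlap, except for 1 X2 library of batch 1 that fell among the CCR7 libraries. Krt7 fell by 0.72 on the log2 scale in CCR7 against X2 (SE 0.19, adjusted p = 0.00365, edgeR), by 0.73 in X2-PDPN against X2 (SE 0.18, adjusted p = 4.70e-04) and by 1.25 in CCR7-PDPN against X2 of batch 1 (SE 0.20). In batch 2 the last comparison gave a fall of 0.90 (SE 0.18), or of 1.11 without CCR7-PDPN replicate 3. Between CCR7-PDPN and CCR7 the difference was -0.53 (SE 0.22, adjusted p = 0.0556), and it passed without CCR7 replicate 2 (-0.68, adjusted p = 0.0141). It also passed in the fit over all 24 libraries (-0.53, adjusted p = 0.0333, edgeR). The CCR7-PDPN to X2-PDPN difference was -0.18 (SE 0.20, adjusted p = 0.460).

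**Figure D3:**
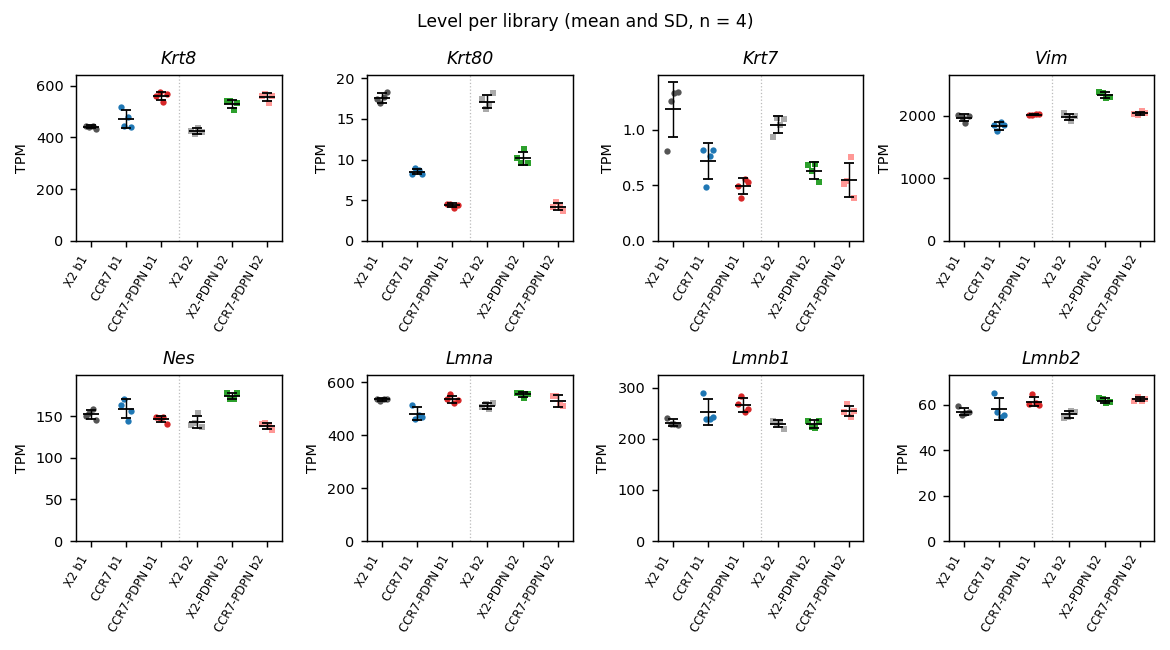
Level in TPM of the 8 members with a row in both batches, 1 panel per gene, axes from 0, 1 point per library; horizontal marks and bars give the mean and SD of 4 libraries, and the dotted line separates the batches (b1, b2). Krt80 steps down from about 17 TPM in X2 to about 4 TPM in CCR7-PDPN in both batches, while Krt8 lies higher in the groups sorted for high PDPN.

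Vim (ENSMUSG00000026728, chromosome 2, 13573927 to 13582826) moved little, and its highest level was in X2-PDPN. In batch 2 X2 had 2040, 1985, 1917 and 2002 TPM, X2-PDPN 2379, 2365, 2294 and 2309 TPM and CCR7-PDPN 2029, 2015, 2075 and 2042 TPM. The X2-PDPN libraries were above all others, and X2 and CCR7-PDPN overlapped. In batch 1 X2 had 1972 ± 54.4 TPM, CCR7 1846 ± 62.8 TPM and CCR7-PDPN 2022 ± 12.8 TPM (SD, n = 4). Vim rose by 0.23 on the log2 scale in X2-PDPN against X2 (SE 0.02, adjusted p = 1.14e-10, edgeR) and by 0.16 in CCR7-PDPN against CCR7 (SE 0.03, adjusted p = 1.38e-04), and it fell by 0.10 in CCR7 against X2 (SE 0.03, adjusted p = 0.00633). CCR7-PDPN differed from X2 by 0.06 in each batch, with adjusted p = 0.0762 in batch 1 and 0.0364 in batch 2. The batch 2 call was lost without any one of 5 libraries: X2 replicate 2 (adjusted p = 0.0788) or 3 (0.221), or CCR7-PDPN replicate 1 (0.0549), 3 (0.0679) or 4 (0.0646). As a ratio of TPM per library, Vim to Krt8 went from 4.48 ± 0.166 in X2 to 3.62 ± 0.124 in CCR7-PDPN in batch 1, and from 4.68 ± 0.201 to 3.68 ± 0.154 in batch 2 (SD, n = 4). CCR7 had 3.94 ± 0.262 in batch 1, below X2 without overlap, and it overlapped with CCR7-PDPN. X2-PDPN had 4.41 ± 0.0845 and overlapped with X2 of batch 2.

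Nes (ENSMUSG00000004891, chromosome 3, 87971078 to 87980451) was the single member whose PDPN difference differed between cells with and without CCR7. X2 of batch 2 had 139, 141, 154 and 137 TPM, X2-PDPN 177, 170, 171 and 178 TPM and CCR7-PDPN 141, 141, 138 and 134 TPM. All X2-PDPN libraries stood above all others of the batch. In batch 1 X2 had 151, 154, 158 and 146 TPM, CCR7 164, 171, 144 and 157 TPM and CCR7-PDPN 148, 148, 149 and 141 TPM, and the groups overlapped. Nes rose by 0.28 on the log2 scale in X2-PDPN against X2 (SE 0.03, adjusted p = 5.20e-11, edgeR) and fell by 0.31 in CCR7-PDPN against X2-PDPN (SE 0.03, adjusted p = 3.04e-12). In CCR7-PDPN against CCR7 the difference was -0.09 (SE 0.04, adjusted p = 0.0850), which became -0.13 without CCR7 replicate 3 (adjusted p = 0.00645) and -0.05 without replicate 2 (adjusted p = 0.307). In CCR7 against X2 it was 0.06 (SE 0.04, adjusted p = 0.245), which became 0.10 without CCR7 replicate 3 (adjusted p = 0.0231) and 0.02 without replicate 2 (adjusted p = 0.673). The CCR7-PDPN libraries differed from X2 by -0.03 in each batch (SE 0.04 and 0.03).

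The PDPN difference with CCR7 (CCR7-PDPN against CCR7, batch 1) was compared with that without CCR7 (X2-PDPN against X2, batch 2) in 1 fit over all 24 libraries. Of 8 members 1 differed at an adjusted p under 0.05, Nes, where 40.8% of the 13690 genes tested did. For Nes the difference was -0.37 on the log2 scale (SE 0.05, adjusted p = 1.31e-06, edgeR). For Krt8 it was -0.03 (SE 0.05), for Krt80 -0.17 (SE 0.09), for Krt7 0.20 (SE 0.28) and for Vim -0.07 (SE 0.04). Without CCR7 replicate 1 the count rose to 3, with Lmna (0.11, adjusted p = 0.0192) and Lmnb1 (0.18, adjusted p = 0.00120). Each arm lies in another batch, so CCR7 and the batch cannot be told apart here.

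Lmna encodes the A-type lamins, which set much of the stiffness of the nucleus, and Lmnb1 and Lmnb2 encode the B-type lamins. Lmna (ENSMUSG00000028063, chromosome 3, 88480147 to 88509956) had 537, 528, 539 and 539 TPM in X2 of batch 1, 516, 463, 478 and 469 TPM in CCR7 and 537, 555, 523 and 533 TPM in CCR7-PDPN. The CCR7 libraries lay below those of both other groups. Lmna fell by 0.16 on the log2 scale in CCR7 against X2 (SE 0.03, adjusted p = 4.53e-04, edgeR) and rose by 0.18 in CCR7-PDPN against CCR7 (SE 0.03, adjusted p = 1.47e-04). In batch 2 X2 had 511 ± 11.6 TPM, X2-PDPN 555 ± 9.22 TPM and CCR7-PDPN 530 ± 21.2 TPM (SD, n = 4). X2-PDPN lay above X2 without overlap, by 0.11 on the log2 scale (SE 0.03, adjusted p = 6.55e-04). CCR7-PDPN exceeded X2 by 0.07 (SE 0.03, adjusted p = 0.0235) in batch 2, a call lost without CCR7-PDPN replicate 1 (adjusted p = 0.125) or 2 (0.113) or X2 replicate 1 (0.0653) or 3 (0.114), and by 0.03 (SE 0.03, adjusted p = 0.504) in batch 1.

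Lmnb1 (ENSMUSG00000024590, chromosome 18, 56707813 to 56753424) was above its X2 level in the CCR7-PDPN libraries of both batches. In batch 2 X2 had 235, 231, 234 and 220 TPM, X2-PDPN 236, 224, 222 and 234 TPM and CCR7-PDPN 253, 268, 243 and 256 TPM. CCR7-PDPN stood above both other groups, which overlapped. Lmnb1 rose by 0.17 on the log2 scale in CCR7-PDPN against X2 (SE 0.03, adjusted p = 5.50e-06, edgeR) and by 0.18 against X2-PDPN (SE 0.03, adjusted p = 1.67e-06), and it differed by -0.01 between X2-PDPN and X2 (SE 0.03). In batch 1 the means were 232 ± 6.59 TPM in X2, 253 ± 25.1 TPM in CCR7 and 266 ± 13.3 TPM in CCR7-PDPN (SD, n = 4). CCR7-PDPN exceeded X2 by 0.22 (SE 0.06, adjusted p = 0.00480). CCR7 differed from X2 by 0.13 (SE 0.06, adjusted p = 0.0950), and without CCR7 replicate 1 by 0.05 (adjusted p = 0.218). The difference passed with the replicate number as a block (0.12, adjusted p = 0.0425) and without a filter on low counts (0.12, adjusted p = 0.00565). It also passed in the fit over all 24 libraries (0.13, adjusted p = 0.0461). The CCR7 mean held this library at 291 TPM against 239 to 243 TPM in the other 3. Without replicate 1 CCR7-PDPN exceeded CCR7 by 0.17 (adjusted p = 6.73e-05), against 0.10 with it (adjusted p = 0.217). With every library kept, that difference passed without a filter on low counts (0.10, adjusted p = 0.0347, edgeR).

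Lmnb2 (ENSMUSG00000062075, chromosome 10, 80901203 to 80918245) was the lowest of the lamins, at 55.8 to 62.4 TPM as group means. It rose by 0.14 on the log2 scale in X2-PDPN against X2 (SE 0.03, adjusted p = 3.13e-04, edgeR) and by 0.18 in CCR7-PDPN against X2 of batch 2 (SE 0.03, adjusted p = 7.21e-06). In batch 1 CCR7-PDPN exceeded X2 by 0.13 (SE 0.05, adjusted p = 0.0261). That call was lost without X2 replicate 2 (adjusted p = 0.0774), 3 (0.0551) or 4 (0.0614) or CCR7-PDPN replicate 2 (0.0841). CCR7-PDPN differed from CCR7 by 0.10 (SE 0.05, adjusted p = 0.0945), with adjusted p = 2.79e-04 without CCR7 replicate 1, the library that was also high in Lmnb1. This difference also passed without a filter on low counts (adjusted p = 0.0486, edgeR) and in the fit over all 24 libraries (0.0375).

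Of the summed lamin TPM, Lmna took 65.0% ± 0.624 in X2 of batch 1, 60.8% ± 1.15 in CCR7 and 62.2% ± 0.523 in CCR7-PDPN (SD, n = 4). X2 of batch 2 had a share of 64.2% ± 1.01, X2-PDPN of 65.6% ± 0.467 and CCR7-PDPN of 62.5% ± 0.808. The ratio of A-type to B-type lamin TPM was 1.79 to 1.90 in the X2 libraries of batch 1 and 1.45 to 1.63 and 1.59 to 1.68 in those of CCR7 and CCR7-PDPN, below X2 without overlap. In batch 2 X2-PDPN had 1.91 ± 0.0397 and CCR7-PDPN 1.67 ± 0.0576 (SD, n = 4) without overlap with each other, and X2, at 1.79 ± 0.0791, overlapped with both. These ratios were not tested.

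Counted over the members, the comparisons stood as follows, with the share of all genes called by the same rule beside each count. In CCR7 against X2 4 of 8 members tested passed an adjusted p of 0.05 (0 higher, 4 lower; 49.3% of 13261 genes), and 1, Krt80, also passed an absolute log2 fold change of 1 (6.48%). In CCR7-PDPN against CCR7 4 passed (3 higher, 1 lower; 41.6%), all with differences under 1 on the log2 scale, where 3.27% of genes passed both limits. In CCR7-PDPN against X2 5 of 8 passed in batch 1 (3 higher, 2 lower; 60.9%) and 7 of 8 in batch 2 (5 higher, 2 lower; 64.8% of 13314 genes). Krt80 and Krt7 passed the fold limit in batch 1 (9.45%) and Krt80 in batch 2 (9.63%). In X2-PDPN against X2 7 passed (5 higher, 2 lower; 56.8%), each with a difference under 1, where 5.05% of genes passed both limits. In CCR7-PDPN against X2-PDPN 5 passed (2 higher, 3 lower; 63.2%), with Krt80 past the fold limit (9.16%). With 4 technical replicates a group, 41.6% to 64.8% of all genes were called, so a call by itself sets the members apart from no other genes. The median absolute log2 difference of the members was 0.11 in CCR7 against X2 and 0.25 in X2-PDPN against X2, beside 0.17 and 0.18 over all genes tested. The comparisons of a batch share libraries and are not independent.

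**Figure D4:**
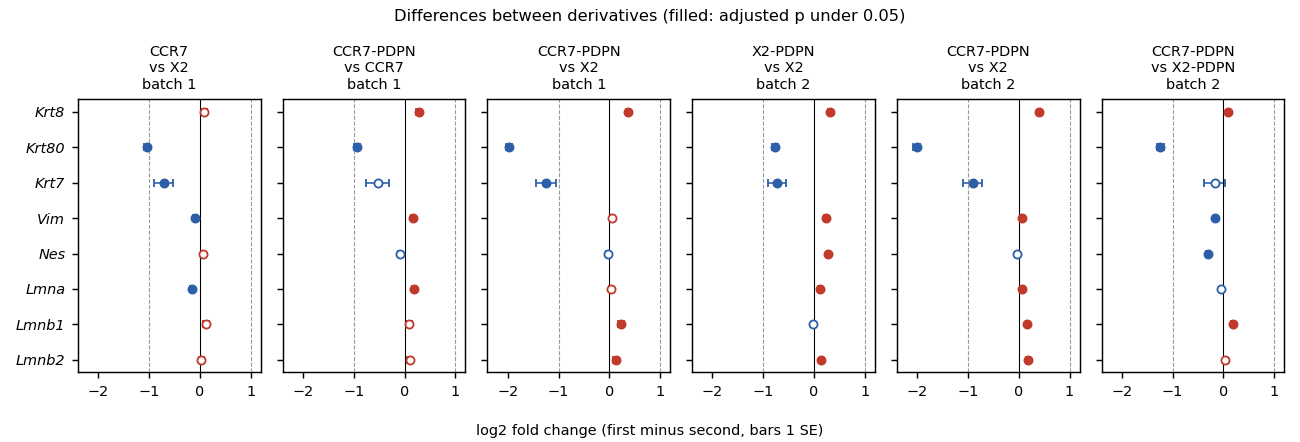
Log2 fold change of the 8 members tested (first group minus second) with bars of 1 SE, 1 panel per comparison; filled points had an adjusted p under 0.05 by edgeR, red is higher, blue is lower, and dashed lines mark 1 and -1. Krt80 is the leftmost point in all 6 panels, from -0.76 to -2.01.

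CCR7-PDPN and X2 were sequenced in both batches, which gives each member's difference a second measurement. In batch 1 and batch 2 it was 0.37 and 0.41 for Krt8, -1.98 and -2.01 for Krt80, -1.25 and -0.90 for Krt7 and 0.22 and 0.17 for Lmnb1. For Lmnb2 it was 0.13 and 0.18, for Lmna 0.03 and 0.07, for Vim 0.06 in both and for Nes -0.03 in both. In the test of the difference between batches 0 of 8 members had an adjusted p under 0.05 by edgeR or by DESeq2, and 0 had an unadjusted p under 0.05. Over all 13690 genes 0 (0.0%) passed by either tool, and 293 had an unadjusted p under 0.05 in edgeR. Whether both batches used the same cultures is not given in the sources used here.

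The 4 keratins lie in 1 stretch of chromosome 15: Krt80 and Krt7 start 40.9 kb apart at one end, and Krt8 and Krt18 lie at the other, with 593 kb between the starts of Krt7 and Krt8. The stretch from Krt80 to Krt18 spans 685 kb and holds 50 annotated genes, of which 26 are protein-coding keratins. Of these 13 had no read in batch 1. Of the 42 genes between Krt7 and Krt8, 1 was tested in batch 1, Krt78, and 0 in batch 2. Krt8 and the pair Krt80 and Krt7 thus border a block of keratin genes with few or no reads, and they moved in opposite directions.

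In X2-PDPN against X2 the surroundings moved too. Of 39 genes tested within 1 Mb of Krt8, 29 passed upward and 4 downward, with a median log2 fold change of 0.31, the same as that of Krt8 itself. Over 553 genes tested on chromosome 15, among them neighbours of Krt8, the median was 0.21, with 334 higher and 39 lower, beside 0.00 over all genes. Krt80 and Krt7 went against this, at -0.76 and -0.73, and so did Itgb7 and Soat2, at -0.95 and -0.46. These are the 4 neighbours of Krt8 counted as downward. In CCR7-PDPN against X2 of batch 2, in contrast, Krt8 was 0.41 higher while the median of its 39 neighbours was -0.09 (7 higher, 17 lower), and in CCR7-PDPN against CCR7 it was 0.28 higher beside a neighbour median of 0.02. On chromosome 18, where Lmnb1 lies, the median over 336 genes was -0.20 in X2-PDPN against X2 and -0.21 in CCR7-PDPN against X2 of batch 2, while Lmnb1 stood at -0.01 and 0.17. The part of such regional shifts in the members' differences was not tested.

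**Figure D5:**
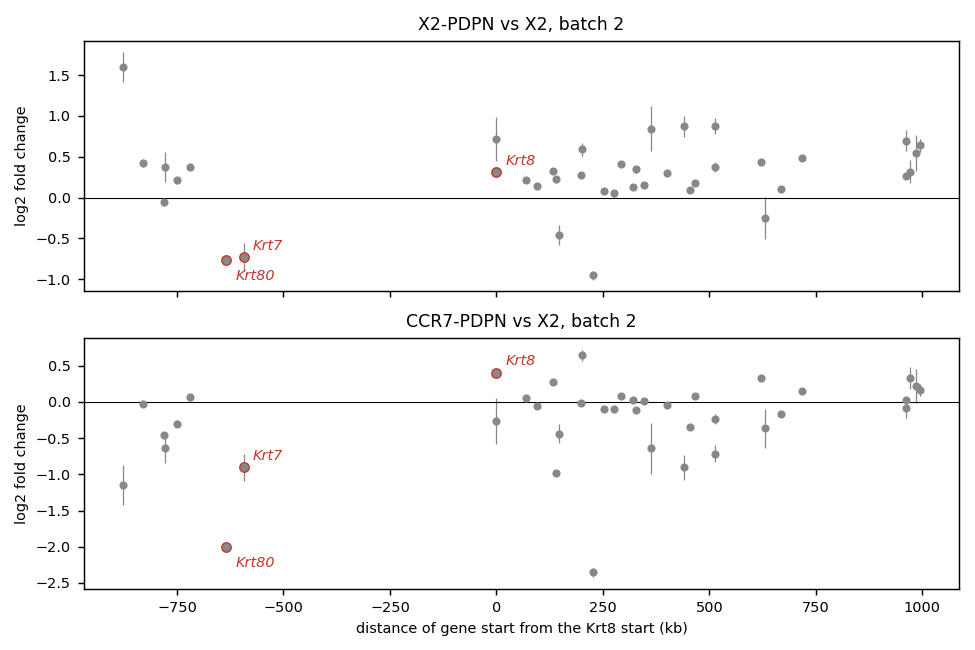
Log2 fold change (bars 1 SE) of all genes tested within 1 Mb of Krt8 against the distance of their start from the Krt8 start (kb), for X2-PDPN against X2 (top) and CCR7-PDPN against X2 (bottom), batch 2; Krt7, Krt8 and Krt80 in red. In the top panel most genes lie above 0 beside Krt8, in the bottom panel Krt8 lies above most of them, and Krt7 and Krt80 are below 0 in both.

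Genes with the pattern most like that of 4 members were ranked over the 6 group means of log2 CPM, each minus the mean of its batch, among 2929 genes whose log2 CPM averaged 1 or more and spanned 0.5 or more. For Krt8 these were Dbi, Tmem53 and Cyp51 (Pearson r 0.999, 0.998 and 0.998), for Krt80 Timm23 and Gm32856 (both r 1.00), for Vim Kazald1, Sema4g and Vmac (0.996, 0.990 and 0.989) and for Lmna Myl6b, Tgfb3 and ND2 (0.991, 0.987 and 0.977). With 6 points that share batches such values are common: 151 genes had r above 0.95 with Krt8 and 409 with Krt80, but 22 with Vim and 9 with Lmna. Dbi encodes an acyl-CoA binding protein and Cyp51 a sterol demethylase. Among the members themselves Krt8 correlated with Lmnb2 at 0.994 and with Krt80 at -0.923 over the same 6 means.

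Beside the members, other intermediate filament genes were few. The counts of this and the following lists stand beside the shares of all genes called: 56.8% in X2-PDPN against X2, 41.6% in CCR7-PDPN against CCR7, 49.3% in CCR7 against X2, and 60.9% and 64.8% in CCR7-PDPN against X2 of batch 1 and batch 2. Of 12 listed genes 6 were tested. In X2-PDPN against X2 4 were higher and 0 lower (median 0.31 on the log2 scale), in CCR7-PDPN against CCR7 4 and 0, and in CCR7 against X2 2 and 2. Synm, whose product synemin links desmin and vimentin filaments to the cell edge, was 1.31 higher in X2-PDPN than in X2 (SE 0.13, adjusted p = 2.52e-11, edgeR) and 0.74 higher in CCR7-PDPN than in CCR7 (SE 0.15), at 0.680 to 1.72 TPM. Prph, encoding the neuronal filament peripherin, was 0.79 higher in X2-PDPN (SE 0.14) and fell by 1.75 in CCR7-PDPN against X2-PDPN (SE 0.17, adjusted p = 1.69e-12). Bfsp1, a lens filament gene with 3 to 24 counts per library, was 1.05 higher in CCR7 than in X2 (SE 0.39, adjusted p = 0.0280). In CCR7-PDPN against X2 it differed by 0.90 in batch 1 (SE 0.39, adjusted p = 0.0515) and by 0.02 in batch 2 (SE 0.40, adjusted p = 0.971).

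Of the 49 keratins that are not members, 2 were tested in batch 1 and 1 in batch 2. Krt16 had 1.28 ± 0.332 TPM in the batch 2 X2 libraries, 2.57 ± 0.460 in X2-PDPN and 0.549 ± 0.135 in CCR7-PDPN (SD, n = 4). It was 1.01 higher on the log2 scale in X2-PDPN than in X2 (SE 0.25, adjusted p = 4.55e-04, edgeR) and fell by 2.21 from X2-PDPN to CCR7-PDPN (SE 0.30, adjusted p = 1.54e-08), on 5 to 48 counts per library of batch 2. Krt78 had 2 to 4 counts in the X2 libraries of batch 1 and 6 to 17 in the others.

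Among the genes named here for proteins that tie filaments to junctions and to the nucleus, Plec, encoding plectin, had the highest RNA level. Of 14 plakins and linkers 10 were tested, and 7 were higher and 2 lower in X2-PDPN against X2 (median 0.59), beside 56.8% of all genes. In CCR7-PDPN against CCR7 1 was higher and 3 were lower (median -0.23), beside 41.6% of all genes. Plec, the general linker of intermediate filaments, was 1.16 higher in X2-PDPN than in X2 (SE 0.07, adjusted p = 1.31e-07, edgeR; 175 ± 7.19 against 78.1 ± 5.76 TPM) and exceeded X2 of batch 2 by 0.41 in CCR7-PDPN (SE 0.07). Between CCR7-PDPN and CCR7 it differed by 0.08 (SE 0.10, adjusted p = 0.558, edgeR). Plec lies on chromosome 15 too. Fam83h, whose product organises keratin filaments, was 1.28 higher in X2-PDPN than in X2 (SE 0.09) and 0.78 higher in CCR7-PDPN than in CCR7 (SE 0.08), and it is likewise on chromosome 15. Itgb4, the hemidesmosome integrin that binds plectin, was 0.93 higher in X2-PDPN than in X2 (SE 0.15) and fell by 1.22 in CCR7 against X2 (SE 0.20), at 0.311 to 1.66 TPM.

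Desmosomes anchor keratins at cell contacts, and their genes were mostly not expressed. Of 13 listed 4 were tested, and in X2-PDPN against X2 2 were higher and 2 lower. Dsp, the desmosomal keratin linker, had 2 to 15 counts in a batch 1 library. Jup, encoding plakoglobin, was 1.04 higher on the log2 scale in X2-PDPN than in X2 (SE 0.05, adjusted p = 1.61e-23, edgeR) and 0.63 higher in CCR7-PDPN than in CCR7 (SE 0.05). Pkp2 fell by 0.82 and 0.42 in the same comparisons (SE 0.04 in both).

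Of 23 genes of epithelial identity 8 were tested in batch 1 and 9 in batch 2. In CCR7-PDPN against X2 1 was higher and 4 were lower in each batch, with medians of -0.57 and -0.17. Klf5, a factor of epithelial progenitors and the best expressed of those named here, had 60.8 ± 2.51 TPM in X2 of batch 1, against 34.6 ± 2.49 TPM for CCR7 and 30.5 ± 0.914 TPM for CCR7-PDPN (SD, n = 4), a fall of 0.82 in CCR7 against X2 (SE 0.05, adjusted p = 2.48e-12, edgeR). Grhl2, a regulator of epithelial junctions that had 9 to 43 counts per library, differed by -1.38 and -1.41 in CCR7-PDPN against X2 in batch 1 and batch 2 (SE 0.23 in both), and Ovol1 by -1.04 and -1.25 (SE 0.20 and 0.22). Elf3 was 0.95 higher in X2-PDPN than in X2 (SE 0.13) and 0.65 higher in CCR7-PDPN than in CCR7 (SE 0.14). St14, a membrane protease, was 0.96 higher in X2-PDPN than in X2 (SE 0.14) and 0.76 higher in CCR7 than in X2 (SE 0.14, adjusted p = 1.58e-04). CCR7-PDPN differed by -1.11 from CCR7 (SE 0.15, adjusted p = 5.32e-06) and by -1.13 from X2-PDPN (SE 0.14, adjusted p = 3.02e-09). Against X2, St14 in CCR7-PDPN differed by -0.35 in batch 1 (adjusted p = 0.0710) and by -0.17 in batch 2 (adjusted p = 0.366). Its inhibitor Spint1 was 1.73 higher in X2-PDPN than in X2 (SE 0.31) and differed by -0.98 between CCR7-PDPN and X2-PDPN (SE 0.28, adjusted p = 0.00224). Esrp2, with 1 to 16 counts per library, fell by 1.28 in X2-PDPN against X2 (SE 0.40).

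The 23 nuclear envelope partners and lamin processing enzymes were all tested. In CCR7 against X2 1 was higher and 11 were lower (median -0.07 on the log2 scale; 49.3% of all genes called). In CCR7-PDPN against X2 of batch 2 4 were higher and 13 lower (-0.08; 64.8%), and in X2-PDPN against X2 9 were higher and 8 lower (0.04; 56.8%). Whether these counts differ from the shares of all genes called was not tested. Lbr, the lamin B receptor, was 0.16 higher in X2-PDPN than in X2 (SE 0.03, adjusted p = 4.77e-06, edgeR) and 0.14 higher in CCR7-PDPN than in CCR7 (SE 0.03). Zmpste24, the protease that matures prelamin A, fell by 0.11 and 0.12 in the same comparisons (SE 0.03 and 0.04). Syne2, which links the envelope to the cytoskeleton, was 1.32 higher in X2-PDPN than in X2 (SE 0.15, adjusted p = 3.84e-05), at 40.4 ± 4.12 against 16.1 ± 3.45 TPM, and CCR7 in batch 1 varied from 3097 to 8571 counts between its libraries.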

How the data were processed

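The 24 RNA libraries of EO771 derivatives were sequenced by the authors with a stranded poly(A) kit as single reads and mapped to GRCm38 (mm10). The aligner is not given in the sources used here. The deposited values are raw read counts per Ensembl gene, in 1 table per batch, and the submitters' table for batch 2 holds fewer genes. From these counts, edgeR 4.0.16 (R 4.3.3) was run within each batch on 3 groups of 4 libraries, with filterByExpr, TMM scaling and the robust quasi-likelihood test, and p-values were adjusted by Benjamini-Hochberg over 13261 genes in batch 1, 13314 in batch 2 and 13690 in the fit over both. Thresholds were an adjusted p of 0.05 and an absolute log2 fold change of 1. SE was derived from the F statistic. CPM were TMM-scaled, except the pooled Krt18 CPM and their intervals, which used raw library totals. TPM used GENCODE M21 exonic lengths, and neither measure had a pseudocount. The fit was tested on simulated counts. Alternatives were DESeq2 1.42.0, RLE factors, no filter, other sets of libraries, the replicate number as a block and each library left out.

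The members and gene lists were chosen with earlier results of these data known. Beside the members, list genes past the fold threshold in a comparison were named, together with the 3 genes most like Krt8, Krt80, Vim and Lmna. One of those most like Krt80 is not reported here. Pkp2, Lbr, Zmpste24, Dsp and the markers and keratins near 0 were named after their values were seen. No protein table was used, so coding bases stand for the rod end.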

Additional observations from a re-analysis of the deposited data

Results flagged for a closer look

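In 8 of 51 groups of 4 libraries, 1 library lay apart from the other 3 by Dixon's test of the gap over the range, where chance gives about 1 group in 20. CCR7 replicate 1 of batch 1 was high in Lmnb1 (231.2 CPM, next 190.7) and Lmnb2 (75.17 CPM, next 64.75), and CCR7 replicate 2 was low in Krt7 (0.9052 CPM, next 1.442). In CCR7-PDPN, Krt80 was low in replicate 3 of batch 1 (7.002 CPM, next 7.754), Lmnb2 high in replicate 2 of batch 1 (74.89 CPM, next 70.54) and Krt8 low in replicate 3 of batch 2 (280.3 CPM, next 299.6). In X2, Lmna was low in replicate 2 of batch 1 (817.6 CPM, next 841.5) and Nes high in replicate 3 of batch 2 (263.1 CPM, next 242.2).

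The PDPN difference of Nes differed between cells with and without CCR7, by -0.36591 on the log2 scale (SE 0.05, adjusted p = 1.31e-06, edgeR). Batch and CCR7 cannot be told apart in it.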

How the results depend on the processing

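Over 8 members, 8 comparisons and the alternatives run, 938 of 992 values kept their direction and their side of the threshold, 17 no longer passed, 17 newly passed and 20 changed sign, none of them past the threshold and each with 1 library left out. Over the libraries left out, these differences ran from -0.039 to 0.055 on the log2 scale for Lmnb2 in CCR7 against X2, from -0.032 to 0.010 for Lmnb1 in X2-PDPN against X2 and from -0.044 to 0.0053 for Nes in CCR7-PDPN against X2 of batch 2. Those of the PDPN difference with against without CCR7 ran from -0.068 to 0.026 for Lmnb2 and from -0.068 to 0.013 for Krt8, and those between batches from -0.023 to 0.013 for Vim, from -0.020 to 0.037 for Nes and from -0.101 to 0.025 for Krt80. With 1 library left out, the members past the fold limit in CCR7-PDPN against X2 of batch 2 numbered 1 to 2, and those that differed in the PDPN difference between cells with and without CCR7 numbered 1 to 3. Members past the adjusted p limit in CCR7-PDPN against CCR7 numbered 4 to 6 with 1 library left out. They numbered 6 without a filter on low counts and in the fit over all 24 libraries, in place of 4. In CCR7-PDPN against X2 of batch 2, 5 to 7 passed with 1 library left out and 5 in the fit over all 24 libraries, in place of 7. Calls that moved were of size 0.04 to 0.18 on the log2 scale, apart from Krt7 in CCR7-PDPN against CCR7. In the fit over all 24 libraries, Vim and Lmna in CCR7-PDPN against X2 of batch 2 no longer passed (adjusted p = 0.0578 and 0.0556, edgeR), and 4 values of other comparisons newly passed. Without a filter on low counts, 1891 genes passed both limits in CCR7-PDPN against X2 of batch 1, in place of 1253.

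The numbers were not treated as pairing the libraries, since the labels do not say that they mark a shared culture or day and the same-number correlations ran from -0.12 to 0.0503 in batch 1 and from -0.0407 to 0.106 in batch 2. In batch 1 0 of 12 libraries and in batch 2 7 of 12 were closest to one of their own number, so for batch 2 the data hint at a shared factor. With the replicate block, 5 members in place of 4 passed in CCR7 against X2, and no other member call changed. Krt18 and Krt7 are limited by depth, at 1 to 9 and 20 to 79 counts per library.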
